A study of Mus musculus with 6 samples.

Results

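The 10 genes described here were picked by gene symbol from the 41388 genes of the count table. They encode acute phase proteins (Saa3, Hp, Lcn2, C3, Serpina3n and Cp), proteins that serve metal uptake (Steap4 and Slc39a14) and metallothioneins (Mt1 and Mt2). All 10 passed the filter on low counts, which 15186 genes passed. They were chosen with the difference between PGE2 and vehicle libraries known. That difference is therefore given for them as a description, with no p-value printed for any of them. Counts of the 10 past a p-value threshold are given beside the share of all genes. Nothing is read from the size of the difference or from how many of the 10 differ.

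The acute phase response is the change in plasma protein output that follows injury or infection. Interleukin 6 signalling through STAT3, and interleukin 1 signalling through NF-kappaB and C/EBP factors, are its best known inducers, and glucocorticoids strengthen many of its targets. The liver is its main site, but stromal and fat cells also make several of these proteins. Metallothioneins are small cysteine-rich proteins that hold zinc and copper. Their genes are read by the zinc sensor MTF1 through metal response elements, and they rise with zinc, glucocorticoids and the acute phase.

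The cells were primary fibro-adipogenic progenitors, the mesenchymal cells of the space between muscle fibres, from the muscle of wild-type male mice. They grew in DMEM with Glutamax, fetal bovine serum, human FGF and antibiotics. On each of 2 days they received 500 nM PGE2 (prostaglandin E2, a lipid mediator that acts through receptors coupled to G proteins) or vehicle. Polyadenylated RNA of 3 PGE2 and 3 vehicle libraries was sequenced, and the labels give neither the age of the mice nor whether libraries came from separate animals or cultures. As bulk libraries they cannot tell fewer cells of a type from less RNA per cell.

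Library totals ran from 21006044 counts in vehicle library 2 to 52730962 in PGE2 library 2. Levels are counts scaled to the library total (CPM), and the values of a group are listed in the order of the library numbers. At these depths 3 counts equal 0.0582 to 0.142 CPM. Of the 12 progenitor markers all passed the filter and Pdgfra, the surface receptor by which these cells are usually sorted, stood at 1122 to 1455 CPM. The libraries numbered 1 stood apart. Their summed progenitor markers were 9660 CPM in vehicle and 9210 CPM under PGE2, against 14800 to 21400 CPM in the other 4 libraries. Most of each sum was Col1a1 and Col3a1, at 2013 and 3660 CPM in vehicle library 1 and 5639 and 11150 CPM in PGE2 library 3. Most of the 12 markers were lowest in library 1 of each group, but Cd34 and Thy1 were highest there. Summed myogenic markers of the number 1 libraries were 226 and 154 CPM, against 23.2 to 73.6 CPM in the other 4. Deviations from the group means correlated between libraries of the same number at 0.621, 0.169 and 0.422, but PGE2 library 2 correlated more with vehicle library 3 (0.252). The labels do not say that a number marks a pair, so the pairing was taken from these data. On it, each PGE2 library was also compared with the vehicle library of its number (the paired fit) beside the fit that ignores the numbers (the unblocked fit).

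The coding sequences of Mt1 and Mt2 show what these genes encode. They lie on mouse chromosome 8 (mm10) on the plus strand, Mt2 at chr8:94172664-94173568 and Mt1 at chr8:94179082-94180327, with 5513 bases between them. The sequences were taken from the GENCODE transcripts, and capitals mark the cysteine codons TGC and TGT.
Mt1: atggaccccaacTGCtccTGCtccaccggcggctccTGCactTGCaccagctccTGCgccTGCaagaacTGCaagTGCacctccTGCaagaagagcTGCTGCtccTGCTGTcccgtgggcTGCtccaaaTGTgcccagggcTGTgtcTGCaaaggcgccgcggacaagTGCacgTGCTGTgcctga
Mt2: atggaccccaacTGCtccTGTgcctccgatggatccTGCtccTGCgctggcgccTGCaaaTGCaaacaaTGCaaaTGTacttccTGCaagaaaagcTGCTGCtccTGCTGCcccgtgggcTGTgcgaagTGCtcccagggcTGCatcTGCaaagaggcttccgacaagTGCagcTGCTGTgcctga
Each holds 186 bases and 61 codons before the stop, of which 20, or 32.8%, are cysteine codons. The sequences share 148 of 186 bases (79.6%), and all 20 cysteine codons stand at the same positions. No run of 50 bases of the principal Mt1 or Mt2 transcript occurs in the same direction in a transcript of another gene. Reads of that length could be told apart if their strand was used, and the reverse direction was not searched. A predicted gene, Gm45774, overlaps Mt2 on the other strand and was not analysed here.

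Promoter windows are shown for 4 genes, the metallothioneins with capitals at the metal response element core and Saa3 and C3 with capitals at the C/EBP motif. Saa3 and C3 were chosen because one differed most between the groups and the other little, while each holds 3 or more matches. Sequences are from RefSeq on GRCm38.p6, on the strand of the gene, from 250 bases before the annotated start to 30 after it. They cover chr8:94178839-94179118 for Mt1, chr8:94172368-94172647 for Mt2 (both plus strand), chr7:46715647-46715926 for Saa3 and chr17:57228107-57228386 for C3 (both minus strand).
Mt1: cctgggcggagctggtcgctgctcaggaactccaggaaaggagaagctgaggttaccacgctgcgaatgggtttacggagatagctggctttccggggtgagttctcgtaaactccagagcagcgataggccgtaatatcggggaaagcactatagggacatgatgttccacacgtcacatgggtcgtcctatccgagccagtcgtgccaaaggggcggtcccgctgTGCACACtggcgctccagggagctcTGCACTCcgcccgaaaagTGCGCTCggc
Mt2: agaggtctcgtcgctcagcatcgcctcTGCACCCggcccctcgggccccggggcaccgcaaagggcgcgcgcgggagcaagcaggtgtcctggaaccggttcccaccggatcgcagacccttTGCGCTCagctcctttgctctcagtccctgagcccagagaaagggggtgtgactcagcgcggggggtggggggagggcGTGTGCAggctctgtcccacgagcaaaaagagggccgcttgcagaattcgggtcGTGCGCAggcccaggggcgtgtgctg
Saa3: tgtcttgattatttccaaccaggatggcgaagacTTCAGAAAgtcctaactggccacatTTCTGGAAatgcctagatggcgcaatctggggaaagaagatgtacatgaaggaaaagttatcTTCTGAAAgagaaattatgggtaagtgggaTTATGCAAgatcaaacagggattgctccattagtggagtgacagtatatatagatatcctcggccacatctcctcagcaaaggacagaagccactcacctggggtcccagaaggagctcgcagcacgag
C3: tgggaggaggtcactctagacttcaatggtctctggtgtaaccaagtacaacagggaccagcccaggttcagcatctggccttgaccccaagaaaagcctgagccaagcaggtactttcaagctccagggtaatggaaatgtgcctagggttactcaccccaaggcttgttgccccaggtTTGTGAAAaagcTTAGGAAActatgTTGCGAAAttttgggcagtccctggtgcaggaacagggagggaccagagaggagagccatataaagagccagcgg

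Motifs were searched on both strands in windows reaching 50 bases past the start, for the 8 genes with an entry in the RefSeq table (9 windows, since Cp has 2 starts), and in all 32851 windows of that table. The metal response element core was searched as TGCACNC or TGCGCNC. It occurred 3 times for Mt1 and 4 times for Mt2 and in none of the other 6 genes. At least 1 match stood in 25.7% of all windows and 3 or more in 1.97%. The C/EBP motif TTNNGNAA occurred in 7 of the 8 genes, all but Mt1, with 4 matches for Saa3, 3 for C3, 2 each for Serpina3n and Steap4, and 1 each for Lcn2, Mt2 and either Cp window. It stood in 40.7% of all windows, and 3 or more matches in 3.6%.

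The STAT motif TTCNNNGAA occurred for Steap4 only, against 8.3% of all windows. The NF-kappaB consensus likewise had matches for Steap4 alone, 2 of them, against 4.51% of windows. The full cyclic AMP response element TGACGTCA was in none of the 8 genes and in 1.79% of windows. The shorter TGACG, which is also part of the full element, was in Mt1 and in 20.8% of windows. The antioxidant response element TGACNNNGC was in Mt2 and in 12.4% of windows, and the palindromic glucocorticoid response element was in none of the 8 genes and in 0.00913% of windows. These counts describe letters in a short window and say nothing of binding.

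**Figure D1:**
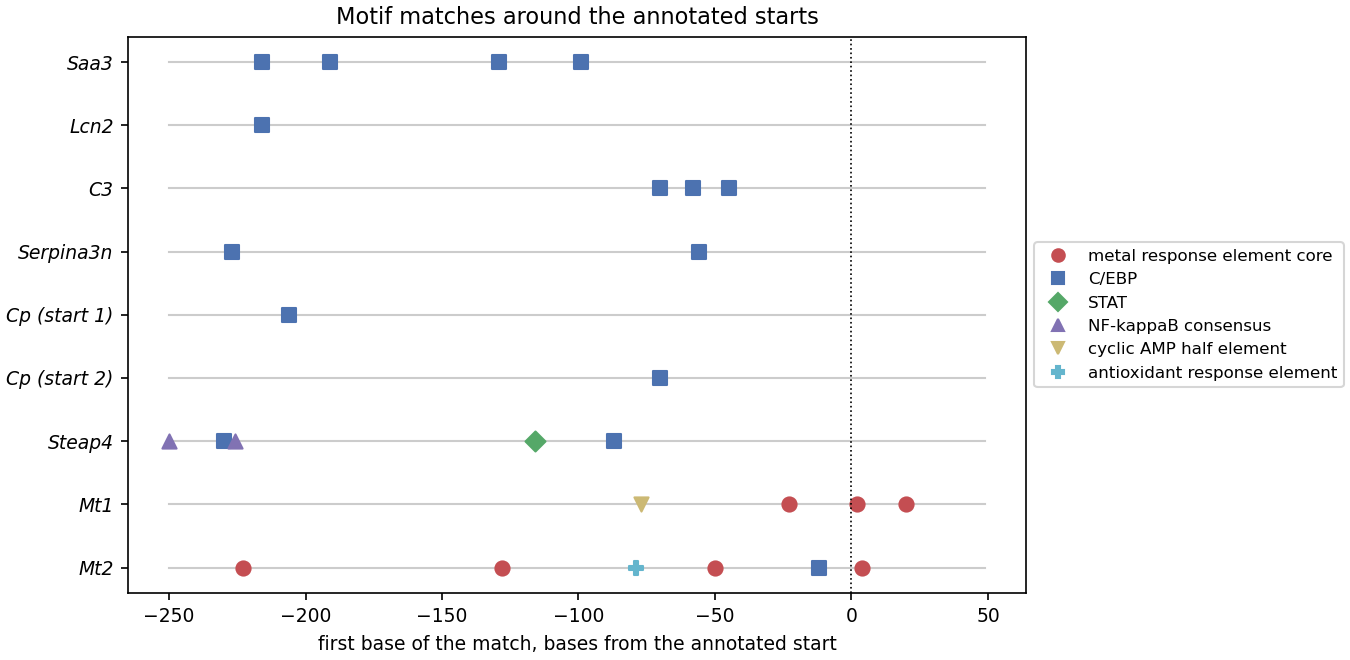
Motif matches in the promoter windows of 8 genes, with the first base of each match on the x axis in bases from the annotated start and one line per window. Mt1 has 3 and Mt2 has 4 metal response element cores, and the C/EBP motif appears in every gene shown but Mt1.

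Mt1 and Mt2 had the highest levels per length of the 10 genes and were higher in every PGE2 library than in any vehicle library. Mt1 stood at 179, 214 and 238 CPM in the vehicle group and at 332, 453 and 367 CPM in the PGE2 group. The group means were 211 ± 29.7 and 384 ± 62.7 CPM (SD, n = 3), a ratio of 1.82. Mt2 stood at 138, 199 and 240 CPM in the vehicle group and at 318, 532 and 471 CPM in the PGE2 group. Its means were 192 ± 51 and 440 ± 110 CPM (SD, n = 3), a ratio of 2.29. The groups did not overlap for either gene, and library 1 was the lowest of its group for both.

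Within same-numbered libraries the log2 difference, PGE2 minus vehicle, was 0.89, 1.08 and 0.62 for Mt1 in pairs 1 to 3. For Mt2 it was 1.20, 1.42 and 0.97, above that of Mt1 in each pair. The paired log2 fold changes were 0.86 ± 0.0932 for Mt1 and 1.20 ± 0.0927 for Mt2 (fitted standard error). With a correction for a trend on transcript length they were 0.69 and 0.98. Counts of Mt2 over counts of Mt1 were 0.772, 0.93 and 1.01 in vehicle libraries and 0.959, 1.17 and 1.28 in PGE2 libraries, with means of 0.903 ± 0.119 and 1.14 ± 0.166 (SD, n = 3). The ratio was higher under PGE2 within each number, and the group ranges overlapped. Together the 2 genes took 0.0325% to 0.0485% of all counts in vehicle libraries and 0.0658% to 0.0964% under PGE2. The brain form Mt3 and the epithelial form Mt4 did not pass the filter, and no library had more than 0.3015 CPM of Mt3.

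Saa3 had the largest ratio of the 10 genes. Saa3 is a serum amyloid A apolipoprotein that mouse tissues outside the liver make. It lies at chr7:46711998-46715700 on the minus strand. Its level stood at 1.4, 2.03 and 3.74 CPM in the vehicle group and at 5.6, 15.3 and 15.3 CPM in the PGE2 group, from 43 to 162 counts and 260 to 791 counts. The means were 2.39 ± 1.21 and 12.1 ± 5.6 CPM (SD, n = 3), a ratio of 5.04. The groups did not overlap, though PGE2 library 1 was nearer to vehicle library 3 than to the other PGE2 libraries. The ratio within pairs was 4.01, 7.54 and 4.08, and the paired log2 fold change was 2.27 ± 0.175. Of the 50-base runs of its principal transcript 1.78% also occur in Saa1.

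Hp encodes haptoglobin, which captures free haemoglobin, and lies at chr8:109575128-109579172 on the minus strand. It stood at 34.9, 57.7 and 56.6 CPM in the vehicle group and at 69, 167 and 160 CPM in the PGE2 group. The means were 49.7 ± 12.9 and 132 ± 54.8 CPM (SD, n = 3), a ratio of 2.66. The groups did not overlap, and library 1 was lowest in each. The ratio was 1.98 in pair 1 and 2.9 and 2.83 in pairs 2 and 3, and the paired log2 fold change was 1.34 ± 0.106.

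Lcn2, lipocalin 2, withholds iron from bacteria by binding their siderophores and lies at chr2:32384633-32388252 on the minus strand. It had the lowest level per length of the 10 and stood at 0.977, 0.994 and 1.02 CPM in the vehicle group and at 2.09, 2.93 and 1.74 CPM in the PGE2 group. These values rest on 21 to 44 and 64 to 151 counts. The means were 0.996 ± 0.0201 and 2.25 ± 0.61 CPM (SD, n = 3), a ratio of 2.26. The vehicle libraries lay within 1.04-fold of each other, the narrowest spread of the 10 genes, though 21 to 44 counts cannot resolve a spread so small. Every PGE2 library was above the vehicle libraries. Its paired log2 fold change was 1.12 ± 0.222, the largest standard error of the 10 in that fit.

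Serpina3n encodes a secreted inhibitor of serine proteases such as granzyme B and lies at chr12:104406729-104414329 on the plus strand. It stood at 37.5, 62.4 and 92.9 CPM in the vehicle group and at 87.1, 172 and 197 CPM in the PGE2 group. PGE2 library 1 was below vehicle library 3, so the groups overlapped, yet each PGE2 library was above the vehicle library of its number. The ratio within pairs was 2.32, 2.76 and 2.12, close to the 2.37 of the means of 152 ± 57.5 and 64.3 ± 27.8 CPM (SD, n = 3). The standard error of its log2 fold change was 0.411 unblocked (1.24) and 0.0844 paired (1.25). Of its 50-base runs 6.9% occur in 7 other Serpina3 genes, so reads in those stretches may be shared.

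C3 and Cp are secreted proteins of the same response whose ratios of means were 0.925 and 1.03, with overlapping groups. C3, the central protein of the complement cascade, lies at chr17:57203970-57228136 on the minus strand. It stood at 32.1, 63.7 and 62.5 CPM in the vehicle group and at 26.8, 60.4 and 59.1 CPM in the PGE2 group. It was lower under PGE2 within each pair, by a log2 difference of -0.26, -0.08 and -0.08. Library 1 differed from libraries 2 and 3 by more than the treatments did. Its means were 52.8 ± 17.9 and 48.8 ± 19.1 CPM (SD, n = 3), and its paired log2 fold change was -0.14 ± 0.0769. The difference changed sign in the unblocked fit when vehicle library 2 (0.04) or 3 (0.03) or PGE2 library 1 (0.18) was left out.

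Cp, ceruloplasmin, is the copper-carrying plasma protein that oxidises iron and lies at chr3:19957054-20009145 on the plus strand. It stood at 44.8, 60.4 and 50.4 CPM in the vehicle group and at 46, 59.8 and 54.7 CPM in the PGE2 group. The groups overlapped, and the paired log2 fold change was 0.05 ± 0.0737. Its sign changed without vehicle library 1 (-0.05) or PGE2 library 2 (-0.04) in the unblocked fit. Hps3 overlaps Cp on the other strand and stood at 12 ± 0.253 CPM in vehicle and 11.8 ± 0.469 CPM under PGE2 libraries (SD, n = 3). Whether counting used strand is not given in the sources used here.

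Slc39a14 and Steap4 serve metal uptake, and the first was higher under PGE2 in each pair while the other was higher in pair 1 alone. Slc39a14, or ZIP14, brings zinc, manganese and iron that is not bound to transferrin into cells and lies at chr14:70303469-70351425 on the minus strand. It stood at 71.7, 88.4 and 87.9 CPM in the vehicle group and at 104, 167 and 183 CPM in the PGE2 group. The means were 82.7 ± 9.46 and 151 ± 41.8 CPM (SD, n = 3), a ratio of 1.83, and the groups did not overlap. The ratio was 1.45, 1.89 and 2.08 in pairs 1 to 3, and the paired log2 fold change was 0.84 ± 0.0964.

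Steap4 is a metalloreductase that reduces iron and copper for uptake and lies at chr5:7960457-7982213 on the plus strand. It stood at 26.8, 65.9 and 70.9 CPM in the vehicle group and at 32, 56.7 and 56.4 CPM in the PGE2 group. The pairs went different ways, with log2 differences of 0.26, -0.22 and -0.33. Its vehicle libraries spanned 2.64-fold, close to the 2.68-fold of Saa3, and the paired log2 fold change was -0.10 ± 0.107. The sign changed unblocked without vehicle library 3 (0.06) or PGE2 library 1 (0.06), and paired without pair 3 (0.01).

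**Figure D2:**
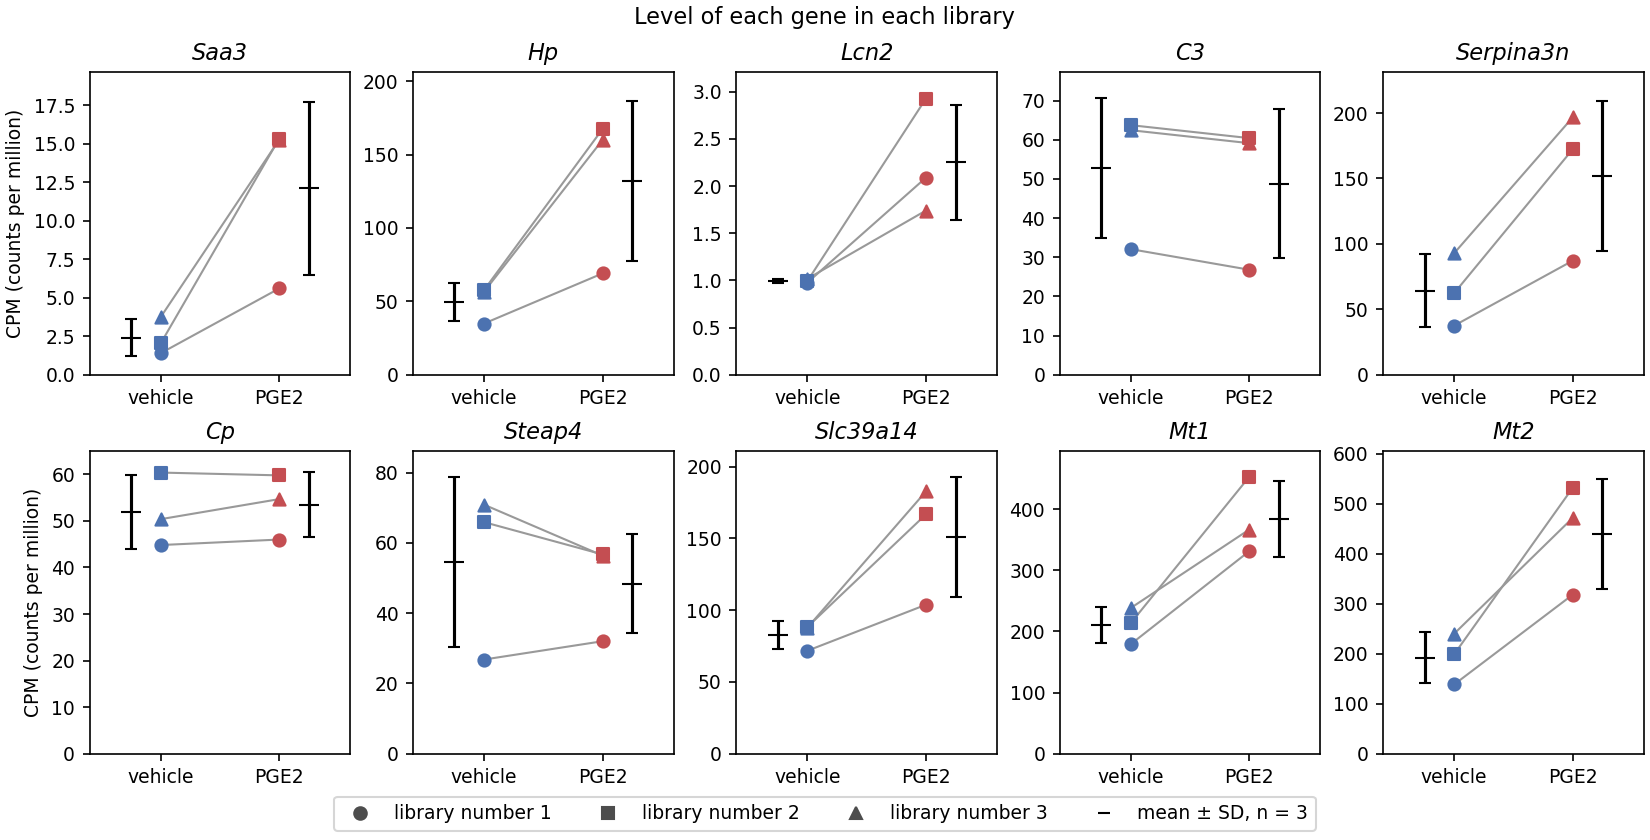
Level of each of the 10 genes in CPM (y axis) in 3 vehicle and 3 PGE2 libraries, with lines joining libraries of the same number and bars giving mean ± SD (n = 3). For Saa3, Hp, Lcn2, Slc39a14, Mt1 and Mt2 all PGE2 points lie above all vehicle points, and the number 1 libraries are lowest in their group for every gene but Lcn2 under PGE2.

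Counted over the 10 genes, 6 had every PGE2 library above every vehicle library and 4 overlapped, where 13.7% of all tested genes lay above and 25.9% did not overlap in either direction. Higher in every pair were 7, against 26.6% of all genes, and lower in every pair was C3, against 25.5%. The median log2 difference of the 10 was 0.94, 1.25 and 0.88 in pairs 1 to 3, and that of all genes was -0.005, 0.011 and -0.001. In the unblocked fit (edgeR's quasi-likelihood test, adjusted p under 0.05 over all genes) 0 of 10 passed, 7 had an unadjusted p under 0.05 and DESeq2 called 6. The background was 0.342% of all genes in the unblocked fit (0.211% higher and 0.132% lower), 20.1% at the unadjusted p and 6.02% by DESeq2 (2.82% higher and 3.2% lower). The paired fit called 7 of 10, all higher, with a background of 14.4% of all genes (6.91% higher and 7.51% lower). With the length correction 0 of 10 were called unblocked, where 0.0988% of all genes were (0.0593% higher and 0.0395% lower), and 7 paired, where 16.8% were (8.82% higher and 7.97% lower). Without pair 3 the paired fit called 6, with Hp lost, where 33.3% of all genes were called (15.6% higher and 17.7% lower). That fit has almost no residual degrees of freedom, so calls kept or lost in it say little. Without PGE2 library 1 the unblocked fit called 4, where 0.784% of all genes were called (0.556% higher and 0.229% lower). As the genes were chosen on this contrast, these counts describe them only.

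**Figure D3:**
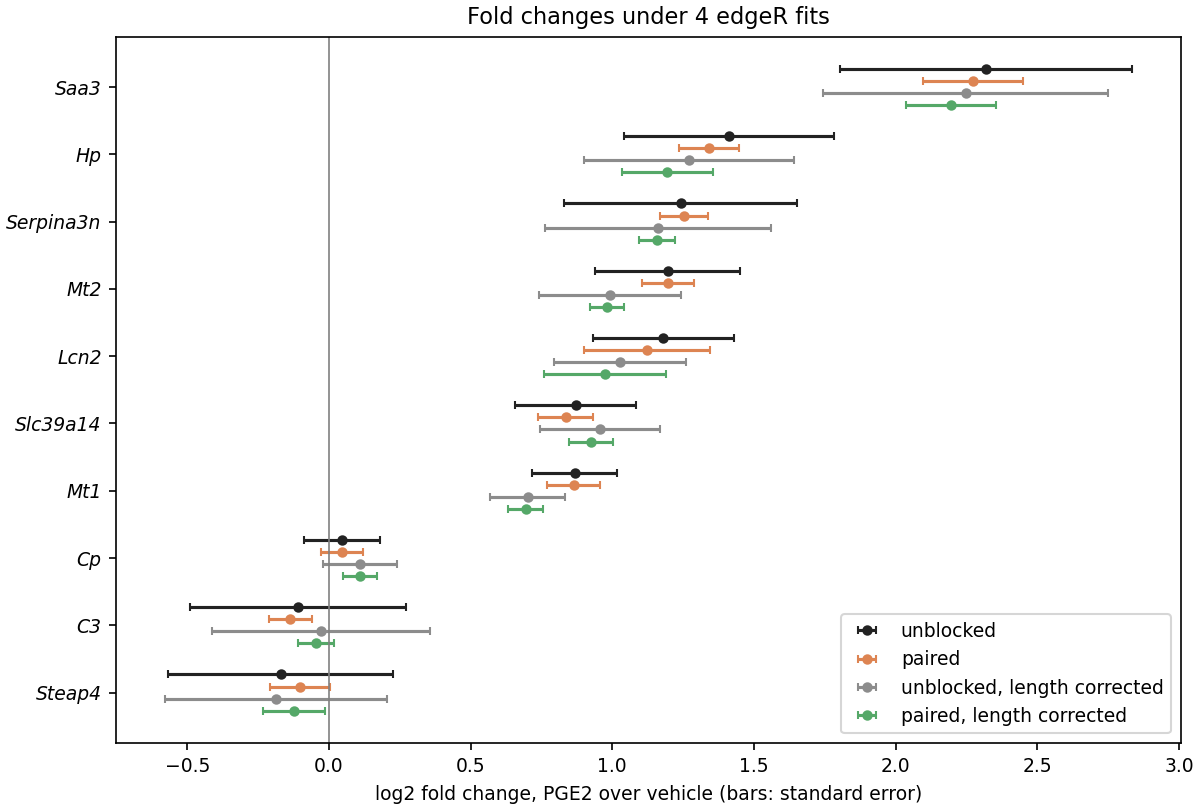
Log2 fold change of PGE2 over vehicle (x axis) with standard error bars for each gene under 4 edgeR fits. The 7 genes from Saa3 (2.32 unblocked, 2.27 paired) to Mt1 (0.87 and 0.86) stay above 0 in all 4, while Cp, C3 and Steap4 lie between -0.19 and 0.11.

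Levels also differed by library number. Within the vehicle libraries number 1 was the lowest for 10 of 10 genes, where this held for 37.8% of all tested genes. Within the PGE2 libraries it was the lowest for 9 of 10, Lcn2 being the other, against 41.1%. Both held for 9 of 10 genes and for 24.4% of all tested genes. Those libraries also had the lowest summed progenitor markers, a sum of mostly Col1a1 and Col3a1, and the highest summed myogenic markers. The part of this in the levels was not tested. With both number 1 libraries left out, the paired log2 fold change was 2.38 ± 0.187 for Saa3, 1.52 ± 0.114 for Hp, 1.14 ± 0.293 for Lcn2 and 1.27 ± 0.117 for Serpina3n. It was then 0.99 ± 0.113 for Slc39a14, 0.85 ± 0.126 for Mt1 and 1.20 ± 0.128 for Mt2. The same 7 genes were called in that fit, where 9.11% of all genes were (4.44% higher and 4.67% lower), and C3, Cp and Steap4 were at -0.08, 0.05 and -0.27. With a pair left out, the paired fit has almost no residual degrees of freedom. Its standard errors and calls therefore say little of the spread of any 1 gene.

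Levels can be compared between genes only per length. In CPM per kilobase of the longest annotated transcript, the vehicle libraries ranked Mt2 first (376 ± 99.9, SD, n = 3), then Mt1 (194 ± 27.4), Hp (37 ± 9.58), Serpina3n (31.1 ± 13.4), Steap4 (17.3 ± 7.65), Slc39a14 (16.2 ± 1.85), Cp (11.4 ± 1.73), C3 (10.3 ± 3.49), Saa3 (1.09 ± 0.552) and Lcn2 (0.725 ± 0.0146). Mt2 ranked 151 and Mt1 282 among 15098 tested genes with a length, while Saa3 ranked 11636 and Lcn2 12286. Neighbours in this order did not overlap after Mt2, Mt1, Slc39a14 and C3. The neighbours Hp and Serpina3n, Serpina3n and Steap4, Steap4 and Slc39a14, Cp and C3, and Saa3 and Lcn2 overlapped between libraries.

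Under PGE2 the same measure kept 8 of 10 positions, with Slc39a14 (29.5 ± 8.16) now above Steap4 (15.3 ± 4.49). Saa3 stayed at rank 9 with 5.48 ± 2.54 CPM per kilobase. The order depended on the transcript chosen. The principal Mt1 transcript has 549 bases where the longest has 1085, and on that length Mt1 (383 ± 54.2) and Mt2 (376 ± 99.9) overlapped in vehicle libraries. The principal Saa3 transcript has 555 bases where the longest has 2200, which put Saa3 at 4.31 ± 2.19 in vehicle and 21.7 ± 10.1 under PGE2, rank 6 of the 10 there.

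**Figure D4:**
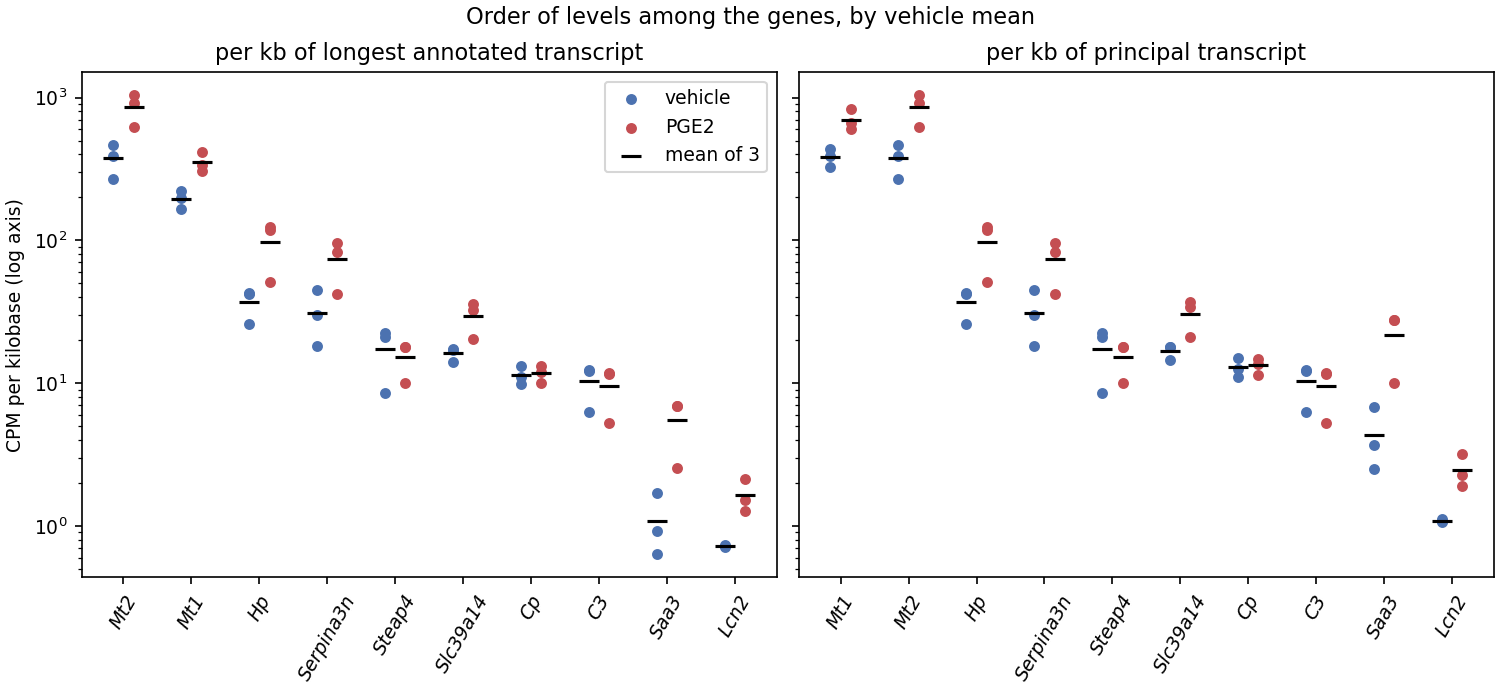
CPM per kilobase (log axis) of each gene in vehicle and PGE2 libraries, per length of the longest (left) and of the principal transcript (right), with points for libraries and a bar for the mean of 3. The metallothioneins lie above all other genes on both lengths, and Saa3 and Lcn2 lie lowest in the vehicle libraries.

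Of 30 acute phase genes outside the 10, 11 passed the filter and 19 did not. In the paired fit 8 of the 11 rose and 0 fell, against 6.91% and 7.51% of all genes, and the median log2 fold change was 1.03, against 0 for all genes. Unblocked, 0 passed, with 7 at an unadjusted p under 0.05 (against 20.1% of all genes), and DESeq2 called 4 (against 6.02%). The list was put together with earlier results of these data known. Here and in the lists that follow, up to 3 genes a list (2 for cell type markers) were named by the smallest unblocked p, and every other list gene was named after its values were seen. Of the 19 genes below the filter, 8 had 0 counts in all libraries (Apcs, Chil3, S100a9 and Serpina1a to Serpina1e), which allows up to 0.0582 to 0.142 CPM in a library.

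Saa1, a serum amyloid A of the liver response, stood at 0.3023, 0.4259 and 0.3928 CPM in the vehicle group and at 0.7968, 1.279 and 1.577 CPM in the PGE2 group. Every PGE2 library was above every vehicle library, and its paired log2 fold change was 1.69 ± 0.292 (edgeR adjusted p = 0.00495; unblocked 0.0949). As 1.78% of the 50-base runs of Saa3 also occur in Saa1, reads in those stretches may be shared. The part of Saa3 reads in the Saa1 counts was not tested. Lrg1, a secreted leucine-rich glycoprotein, rose by 1.25 ± 0.181 (paired adjusted p = 0.00195; unblocked 0.0961) from 1.837 to 2.13 CPM in vehicle to 3.532 to 7.076 CPM. Fga, the fibrinogen alpha chain, rose by 1.89 ± 0.398 (paired adjusted p = 0.0157; unblocked 0.111) at 0.3697 to 0.5814 CPM in vehicle and 0.926 to 3.046 CPM under PGE2. The others were Fgg (fibrinogen gamma chain, 3.17 ± 0.353, adjusted p = 0.000439), A2m (alpha-2-macroglobulin, 1.03, 0.00102), Lbp (lipopolysaccharide-binding protein, 0.55, 0.00155), Ptx3 (pentraxin 3, 0.52, 0.00257) and Cd14 (lipopolysaccharide co-receptor, 0.44, 0.0357) in the paired fit. Cd14 did not pass with the length correction (0.31, adjusted p = 0.0684) or without pair 1 (0.107) or pair 2 (0.203). Ptx3 stood at 313.1 to 465.8 CPM in vehicle and 460.4 to 653.2 CPM under PGE2. The other tested genes were Saa2 (1.08), Saa4 (0.599) and the haem-binding Hpx (0.12), none past the threshold.

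Among paralogs of the 10 genes, 18 of 28 passed the filter. With the length correction in the paired fit 4 rose and 0 fell, against 8.82% and 7.97% of all genes. The paired fit without it had 3 higher and 0 lower (16.7%, near the 14.4% of all genes), with a median of 0.11, and the unblocked fit 1 higher. That gene was Steap1, a STEAP family member like Steap4, at 35.12, 37.1 and 37.18 CPM in the vehicle group and at 52.76, 52.88 and 51.21 CPM in the PGE2 group. Its log2 fold change was 0.52 ± 0.0631 (unblocked adjusted p = 0.0402; paired 0.00195). That call was lost unblocked with the length correction (0.36, adjusted p = 0.078) and without each single library other than PGE2 library 1 (adjusted p between 0.0524 and 0.296). Steap4 itself was at -0.17 in the unblocked fit. Serpina3i, in the family of Serpina3n, rose by 1.73 ± 0.248 paired (adjusted p = 0.00187; unblocked 0.0873) at 0.4259 to 0.7164 CPM in vehicle and 1.292 to 2.284 CPM under PGE2. Saa1 was the other. Serpina3g, another relative of Serpina3n, was at 0.16 ± 0.0896 (paired adjusted p = 0.24).

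The inducers and transducers of the acute phase response held 2 of the 3 unblocked calls among the pathway genes. Of 26 tested genes 2 rose and 0 fell unblocked, and 11 rose and 0 fell in the paired fit (42.3%, against 14.4% of all genes), with a median of 0.25. With the length correction in the paired fit 15 rose and 2 fell. Those that fell were Nfkbia (-0.364, adjusted p = 0.00163) and Cebpa (-0.204, 0.0481). Il6, the cytokine that drives the response in liver, stood at 1.558, 1.136 and 1.756 CPM in the vehicle group and at 7.667, 17.68 and 15.8 CPM in the PGE2 group. Its log2 fold change was 3.18 ± 0.353 (unblocked adjusted p = 0.0394; paired 3.06, 0.000296). The unblocked call was lost with the length correction (3.11, adjusted p = 0.0553) and without each library other than PGE2 library 1 (adjusted p between 0.0531 and 0.202). The paired call was lost without pair 3 (2.98, adjusted p = 0.13).

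Nfkbiz, a nuclear IkappaB protein that acts with NF-kappaB at a subset of its targets, stood at 24.49, 24.7 and 26.55 CPM in the vehicle group and at 40.03, 44.3 and 39.95 CPM in the PGE2 group. It rose by 0.71 ± 0.0765 (unblocked adjusted p = 0.03; paired 0.000519), a call lost unblocked without each library other than PGE2 library 1 (adjusted p between 0.0501 and 0.231). Lif, another cytokine of the interleukin 6 family, rose by 0.66 ± 0.112 paired (adjusted p = 0.00426; unblocked 0.0644). Socs3, the feedback inhibitor of STAT3 signalling, rose by 0.82 ± 0.067 paired (adjusted p = 7.82e-05; unblocked 0.111), Cebpb by 0.60 ± 0.071 (0.000585; unblocked 0.0929) and Cebpd by 0.57 ± 0.0841 (0.00223; unblocked 0.0961). Stat3 was at 0.06 ± 0.0757 (paired adjusted p = 0.606). The NF-kappaB subunit genes Nfkb1, Nfkb2, Rela and Relb were at -0.06, -0.01, 0.054 and -0.031 paired, none past the threshold. Nfkbia was at -0.233 (paired adjusted p = 0.0737), with every PGE2 library below every vehicle library. Il1a, Il1b and Osm had 0 counts in all libraries, and Tnf had counts in vehicle library 3 alone, at 0.02311 CPM.

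Genes of zinc handling other than the metallothioneins and Slc39a14 were called about as often as all genes in the paired fit without the length correction. Of 17 tested genes 0 passed unblocked, with 1 at an unadjusted p under 0.05 (against 20.1% of all genes) and 0 by DESeq2 (against 6.02%). The paired fit had 1 higher and 1 lower (11.8%, against 14.4% of all genes), with a median of 0.09. With the length correction in the paired fit 4 rose and 1 fell, against 8.82% and 7.97% of all genes. Called only then were Slc30a5 (0.196, adjusted p = 0.0303), Slc30a7 (0.307, 0.00292) and Slc30a9 (0.235, 0.0166). Slc39a13, a zinc importer of intracellular membranes, rose by 0.28 ± 0.0689 paired (adjusted p = 0.0231; unblocked 0.251), a call lost without pair 1 (0.108) or pair 2 (0.188). Slc30a4, which moves zinc into vesicles, fell by 0.45 ± 0.0884 paired (adjusted p = 0.00969; unblocked 0.256). Slc39a10, an importer at the cell surface, was at 38.01 to 44.61 CPM in vehicle and 30.88 to 37.5 CPM under PGE2, and its -0.265 did not pass (paired adjusted p = 0.0786). The zinc sensor Mtf1 was at -0.06 ± 0.0834 (paired adjusted p = 0.641) and the MTF1 target Slc30a1, which exports zinc at the cell surface, at 0.10 ± 0.1 (0.535). Slc39a8, the closest relative of Slc39a14, was at 0.01 ± 0.112 (0.96).

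Of 30 tested genes of iron and copper handling, 1 rose unblocked (Steap1) and 4 rose in the paired fit, with 0 lower in either and a paired median of 0.11. The paired share of 13.3% was near the 14.4% of all genes. The 4 were Steap1, the copper chaperone Atox1 (0.38 ± 0.0794, paired adjusted p = 0.0128; unblocked 0.0958), the secreted copper-zinc enzyme Sod3 and the iron regulator Hfe. Sod3 stood at 43.51, 70.42 and 101.6 CPM in the vehicle group and at 87.78, 247.3 and 279.7 CPM in the PGE2 group (1.43 ± 0.134, paired adjusted p = 0.000543; unblocked 0.175; without pair 3 1.41, 0.255). Hfe was at 0.456 ± 0.137 (0.0493; without pair 2 0.388). Atox1 did not pass with the length correction (0.165, adjusted p = 0.0685) or without pair 1 (0.0742) or pair 2 (0.0522). With that correction in the paired fit 7 genes of the list rose and 1 fell, against 8.82% and 7.97% of all genes. Among those that rose was Steap2 (0.368, adjusted p = 0.000529), and Slc40a1 fell (-0.302, 0.0379). Hmox2, the constitutive haem oxygenase, was at 0.24 ± 0.0716 (paired adjusted p = 0.0501), and the inducible Hmox1, which degrades haem, at 0.05 ± 0.0726 (0.676). The ferritin chains Fth1 and Ftl1 and the transferrin receptor Tfrc were at 0.17, 0.08 and -0.02 in the paired fit, none past the threshold.

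Complement genes gave 0 calls among 20 unblocked, with 4 at an unadjusted p under 0.05 (against 20.1% of all genes) and 2 by DESeq2 (against 6.02%). The paired fit had 3 higher and 1 lower (20%, against 14.4% of all genes), with a median of 0.05. Higher were the convertase inhibitor Cd55 (0.62 ± 0.0949, paired adjusted p = 0.00257; unblocked 0.0534), the lectin pathway protease Masp1 (0.485 ± 0.0972, 0.0103; unblocked 0.137) and the C1 inhibitor Serping1 (0.57 ± 0.086, 0.00231; unblocked 0.51). Lower was Cfd, the protease factor D, at 1.086 to 2.508 CPM in vehicle and 0.2991 to 1.086 CPM under PGE2 (-1.50 ± 0.236, 0.00296; unblocked 0.19). Cr1l, a membrane regulator, was at 0.215 ± 0.076 (paired adjusted p = 0.0839). The C3 relatives C4b and Hc, which encode complement C4 and C5, were at 0.157 and -0.12.

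The glucocorticoid receptor list also holds the receptor gene Nr3c1 and the steroid enzyme gene Hsd11b1, so not all of it is receptor targets. It gave 0 calls among 11 unblocked, with 6 at an unadjusted p under 0.05 (against 20.1% of all genes) and 5 by DESeq2 (against 6.02%). In the paired fit 5 rose and 2 fell (63.6%, against 14.4% of all genes). Nr3c1, the receptor gene itself, fell by 0.58 ± 0.0877 (paired adjusted p = 0.00231; unblocked 0.0614). Ddit4 rose by 0.57 ± 0.0681 (0.000643; unblocked 0.0534) and the kinase gene Sgk1 by 0.37 ± 0.0678 (0.00671; unblocked 0.0728). Hsd11b1 (0.774 ± 0.09, paired adjusted p = 0.000543), Dusp1 (0.495, 0.00909) and Errfi1 (0.389, 0.0103; without pair 2 0.0514) also rose. Cdkn1c also fell (-0.565, 0.00296). The receptor targets Fkbp5, Per1 and Tsc22d3 were at -0.07, -0.01 and -0.205, none past the threshold. The 14 NRF2 target and regulator genes gave 0 calls unblocked, with 2 at an unadjusted p under 0.05 (against 20.1% of all genes) and 0 by DESeq2 (against 6.02%). The paired fit had 2 that rose and 0 that fell (14.3%, against 14.4% of all genes). The 2 were Gclm of glutathione synthesis (0.42 ± 0.0753, adjusted p = 0.0057; unblocked 0.159) and the sulfiredoxin Srxn1 (0.30 ± 0.0761, 0.0278; unblocked 0.218; without pair 2 0.23). Gstm1, a glutathione transferase, was at -0.20 (paired adjusted p = 0.187). Once the pairs were also corrected for length, 2 of the list rose and 3 fell, against 8.82% and 7.97% of all genes. Those that fell were Gstm1 (-0.36, adjusted p = 0.00677), Nqo1 (-0.435, 0.000799) and Gsta4 (-0.52, 0.00772).

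**Figure D5:**
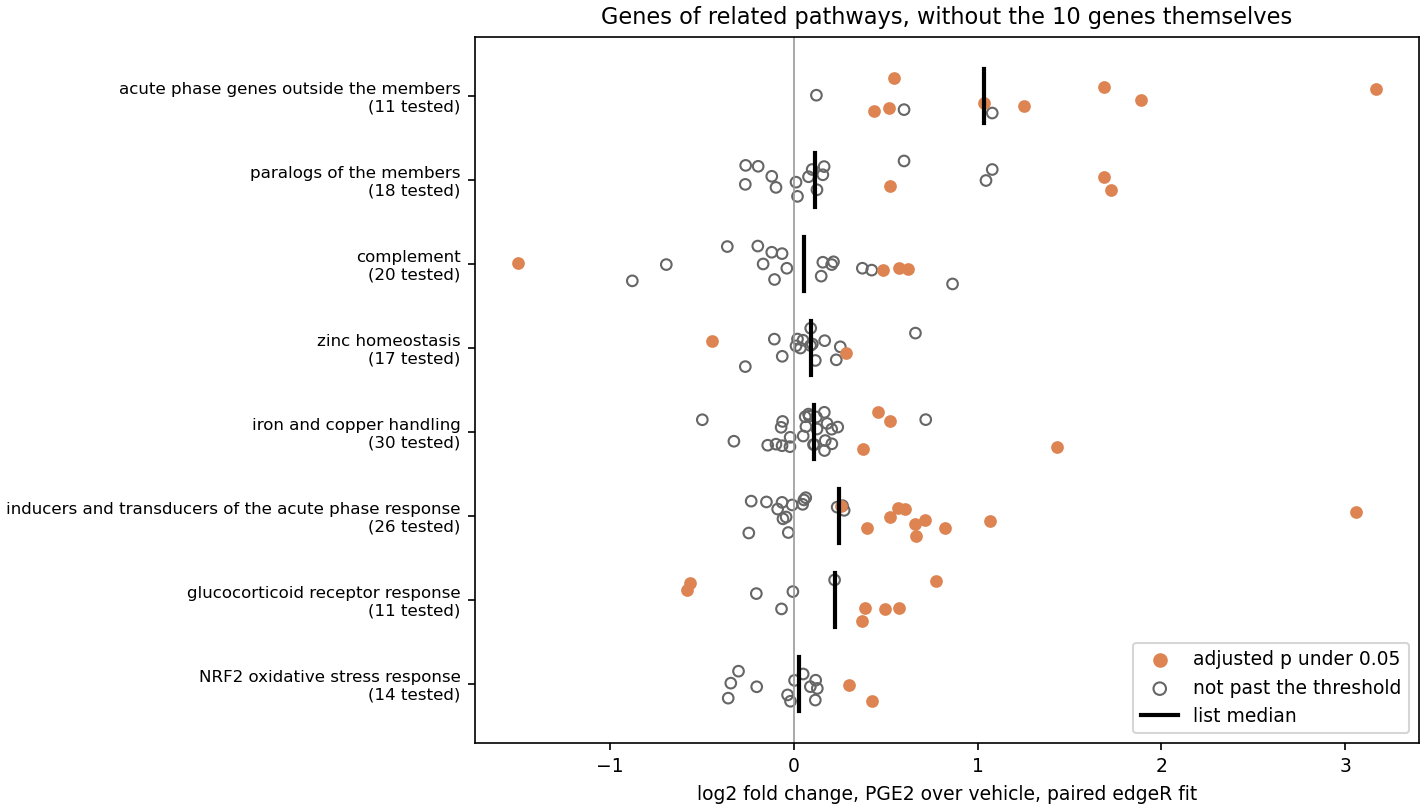
Paired log2 fold change (x axis) of each tested gene of 8 lists without the 10 genes themselves, filled where the adjusted p over all genes was under 0.05, with a bar at the list median. The acute phase list has 8 of 11 genes filled and its median at 1.03, while the other medians lie between 0.03 and 0.25.

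Over the 8 lists together, 133 genes were tested. Unblocked, 3 rose and 0 fell, and in the paired fit 35 rose and 4 fell, against 6.91% and 7.51% of all genes. With the length correction these were 1 and 0 unblocked and 46 and 12 paired. Unblocked, 8 rose without PGE2 library 1 and 0 passed without any other single library, and the paired fit had 49 higher and 17 lower without pair 3, where 15.6% of all genes were higher and 17.7% lower.

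Markers of hepatocytes and leukocytes, which also make acute phase proteins, were low. Of 8 hepatocyte markers Ttr had 0 counts in all libraries, and Alb stayed at or below 0.04732 CPM. The summed hepatocyte list was 1.48 to 1.65 CPM in vehicle and 1.7 to 2.72 CPM under PGE2, with Fgb, the fibrinogen beta chain, at 0 to 0.04732 CPM and 0.1938 to 1.066 CPM. Of 13 leukocyte markers in the table Ptprc, Cd3e and S100a9 had 0 counts throughout, and the list summed to 4.49 to 5.15 CPM in vehicle and 5.14 to 5.6 CPM under PGE2. Of its 4 tested genes 1 was called in the paired fit (25%, against 14.4% of all genes). It was Csf1r, which rose (0.79 ± 0.221, adjusted p = 0.0392; unblocked 0.183) at 0.7099 to 1.34 CPM and 1.687 to 2.067 CPM. That call was lost without pair 1 (0.0673) or pair 2 (0.141), and Mrc1 was at -1.61 (0.0635).

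Adipocyte and myogenic markers were measurable and moved with the treatment within pairs. The adipocyte list summed to 160, 114 and 81.6 CPM in the vehicle group and to 142, 102 and 62.3 CPM in the PGE2 group. In the paired fit 6.91% of all genes rose and 7.51% fell. Of the 6 tested adipocyte genes 5 fell in that fit, Adipoq (-1.12, adjusted p = 0.0132) and Cfd among them, and Fabp4 rose (0.38, 0.0182; without pair 2 0.18). Of the 5, Plin4 was lost with the length correction (adjusted p = 0.374) or without pair 3 (0.281), Plin1 without pair 1 (0.234), and Pparg without pair 1 (0.122) or pair 2 (0.0828). The myogenic list summed to 226, 73.6 and 49.9 CPM in vehicle and 154, 23.2 and 23.4 CPM in PGE2 libraries, and 5 of its 7 tested genes fell paired, including Myod1 (-1.35, 0.00564) and Myh8 (-1.17, 0.033). Of these 5 the length correction left 2, and without pair 3 all but Myod1 were lost, Myh8 at 0.457, Myog at 0.425, Des at 0.374 and Acta1 at 0.101. Endothelial markers summed to 21.2 to 47 CPM and 19 to 33.3 CPM, with Tek lower (-0.425, 0.0254; without pair 2 0.12). Among the 12 progenitor markers 3 rose and 4 fell paired, with Pi16 (0.98, 0.00315), Thy1 (0.73, 0.000439) and Ly6a (0.62, 0.00212) higher. Lower were Col15a1 (-0.975, 0.000133), Cd34 (-0.59, 0.000748), Gsn (-0.44, 0.0158; without pair 2 0.158) and Lum (-0.66, 0.0289; without pair 3 0.111). Unblocked, 0 of the 36 tested genes of all 6 marker lists passed. At an unadjusted p under 0.05 there were 9, against 20.1% of all genes, and DESeq2 called 4 of 33, against 6.02%. The part of these cell types in the levels of the 10 genes was not tested.

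Patterns over the 6 libraries were compared by the root mean square difference of log2 CPM centred over libraries, among 10315 other genes whose mean reached 5 CPM. The genes most like Saa3 were Dio2 (0.384), Wisp2 (0.389), Rasl10b (0.424) and Sod3 (0.446). Those most like the mean of Mt1 and Mt2 were Ackr3 (0.107), Gadd45g (0.108), Tspan11 (0.114) and Angptl4 (0.115). Ackr3 stood at 23.84, 34.59 and 33.3 CPM in the vehicle group and at 53.43, 69.11 and 59.67 CPM in the PGE2 group. Dio2 stood at 4.605, 5.3 and 5.176 CPM in vehicle and 10.29, 35.42 and 31.79 CPM in PGE2 libraries. Within the 10, the closest patterns were C3 with Steap4 (0.173), Mt1 with Slc39a14 (0.203), Lcn2 with Mt1 (0.212) and Hp with Serpina3n (0.226), and the most distant were Saa3 and Cp (1.25). The distance of Mt1 from its neighbour Mt2 was 0.237, and Mt2 was nearer to Hp (0.229) and Serpina3n (0.233). All 6 libraries and both treatments enter this measure, so it describes the pattern and holds no test.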

How the data were processed

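The values used are read counts per gene for 6 libraries, whole numbers as the authors deposited them in 1 table. Per the submitters' processing notes the genome build was mm10, and per the labels' protocols polyadenylated RNA was read as paired ends on a NovaSeq. The sources used here do not give the aligner, the counter, its strand setting or the annotation. Gene IDs matched GENCODE M21 for 97.5%, which gave loci and, for 99.4% of tested genes, transcript lengths.

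CPM are counts over the library totals of the genes past the filter, each total multiplied by its TMM factor. Depth was 21006044 to 52730962 counts, and detection limits of 3 counts cover counting error only. The unblocked fit was edgeR 4.0.16 (R 4.3.3), the robust quasi-likelihood test with TMM scaling and filterByExpr, with Benjamini-Hochberg adjustment over 15186 genes and a threshold of 0.05. The paired fit added the library number as a block. Deviations from group means correlated between libraries of the same number at 0.621, 0.169 and 0.422 (other combinations -0.497 to 0.252), which is where the pairing comes from. PGE2 library 2 correlated more with vehicle library 3 (0.252) than with vehicle library 2. The length correction added a lowess trend (span 0.3) on the longest transcript to the offsets. Replicates of a group differed by more than counting noise (chi-square per degree of freedom 20.7 to 101). As the labels do not say that libraries came from separate mice or cultures, a p-value here reflects spread among these 6 libraries only, possibly of technical origin.

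The 10 genes and the 8 pathway lists were chosen with earlier results of these data known. Named from each pathway list were up to 3 genes with the smallest unblocked p, up to 2 from each of 6 marker lists, and the 4 genes most like Saa3 and most like the mean of Mt1 and Mt2. Every other list gene in the text was named after its values were seen. Alternatives were RLE scaling, library totals, no filter, DESeq2 1.42.0, both length corrections, leaving out each library or pair, and other transcript lengths. Paired fits without a pair have almost no residual degrees of freedom. Their standard errors, p-values and calls, kept or lost, therefore say little of the spread of a single gene. The fits were tested on simulated data that held no effect of library number and no trend on length. That test therefore cannot show how the paired or length-corrected fits handle such effects.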

Additional observations from a re-analysis of the deposited data

How the results depend on the processing

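The number of genes past the threshold was 52 unblocked, 50 with RLE scaling, 65 with library totals, 285 without the filter, 829 by DESeq2, 2189 with the replicate block, 15 with the length correction and 2549 with the length correction and the block. Leaving out 1 library gave 0 to 120 (0 without library 2 or 3 of either group, 30 without vehicle library 1 and 120 without PGE2 library 1), and leaving out a pair with the block gave 1160 to 5097 (1372 without pair 1). Of the 10 genes, 0 passed unblocked, 1 without the filter, 6 by DESeq2, 7 with the replicate block, 7 with the length correction and the block, 0 to 4 without 1 library (4 without PGE2 library 1) and 6 to 7 without a pair, Hp being the gene lost without pair 3. Of 133 pathway genes, 3 passed unblocked, 13 without the filter, 21 by DESeq2, 39 with the replicate block, 1 with the length correction, 58 with the length correction and the block, 0 to 8 without 1 library (8 without PGE2 library 1) and 32 to 66 without a pair (41 without pair 1). The cause of these shifts was not tested. The 7 genes higher in every pair kept their sign under all 16 alternatives, and their log2 fold changes ranged from 0.69 to 0.98 for Mt1 up to 2.01 to 2.84 for Saa3. In the fits that leave out libraries, the range was -0.38 to 0.18 for C3, -0.05 to 0.16 for Cp, -0.51 to 0.06 for Steap4, -0.44 to 0.19 for Ahsg and -3 to 0.04 for Myod1. Signs reversed for C3 without vehicle library 2 (0.04), vehicle library 3 (0.03) and PGE2 library 1 (0.18), for Cp without vehicle library 1 (-0.05) and PGE2 library 2 (-0.04), for Steap4 without vehicle library 3 (0.06), PGE2 library 1 (0.06) and pair 3 in the block (0.01), for the hepatocyte marker Ahsg without vehicle library 2 (0.02) and PGE2 library 1 (0.19), and for Myod1 without vehicle library 1 (0.04). Of 10 positions in the level order, 5 were the same on union exons, 8 in PGE2 libraries and 8 on principal transcripts, the last chosen after seeing the data. Depth limits Lcn2 most, with 21 to 151 counts in a library.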
